A study of Mus musculus with 64 samples.

Results

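The genes described here encode the protein subunits of the mitochondrial ribosome. They were chosen from the deposited gene counts by symbol and level: protein-coding genes whose mouse symbol starts with Mrpl or Mrps and a digit, with a mean of at least 1 CPM, a gene's count scaled to the total of its library, over all libraries. The table held 83 such symbols among 48795 gene rows, of which 5 were pseudogenes and 78 protein-coding. All protein-coding ones but Mrpl53 met the level, which left 77 members, and all 77 also passed the filter on low counts that left 16417 genes for testing. Mrpl53 had 4 counts in all, in 4 libraries, and 88% of its exon bases lie on the same strand as exons of another gene, Gm42688.

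The hearts came from male C57BL/6 mice, and RNA of both ventricles was read by mRNA-seq. CEK mice lack the transcriptional repressor E4BP4, encoded by Nfil3, in cardiomyocytes, and CON mice are their littermate controls. The sources used here do not name the promoter that drives the deletion, the alleles or the ages. Hearts of both genotypes were taken every 3 h at 8 zeitgeber times (ZT, hours after lights on), from ZT00 to ZT21, with 4 libraries per genotype and time labelled as biological replicates, hence 16 groups, 32 CEK libraries, 32 CON libraries and 64 in all.

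Mitochondria keep their own small genome, which encodes a handful of hydrophobic subunits of the respiratory chain, the ribosomal RNAs and the transfer RNAs. The mitochondrial ribosome translates only these messages. All of its proteins are encoded in the nucleus, made in the cytosol and imported. The large subunit forms peptide bonds and the small subunit reads the message, and both combine proteins with bacterial counterparts and proteins found only in mitochondria. The heart depends on respiration, and in humans defects of MRPL3, MRPL44 and MRPS22 are linked to cardiomyopathy. E4BP4 competes for D-box elements with the activators Dbp, Tef and Hlf, so the comparisons by genotype and by time ask whether a clock-linked repressor or the daily cycle alters these genes.

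By the usual structural names, 50 members belong to the large subunit and 26 to the small subunit. The names in the symbols do not always match: 2 genes named Mrps, Mrps18a and Mrps30, encode proteins of the large subunit. Mrps36 is counted in neither, because its product is now placed in the alpha-ketoglutarate dehydrogenase complex of the citric acid cycle. Members with a bacterial counterpart numbered 46 and mitochondria-specific ones 30. The members lie on 17 chromosomes, with 11 on chromosome 11.

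The start regions of 5 members on which the results below turn are printed so that their letters can be compared. They are Mrpl42, which had the highest level and followed the other members most closely, and Mrpl50, the member called lower in CEK hearts. Also printed are Mrps2 and Mrpl39, called as rhythmic in CON and in CEK hearts, and Mrps18b, which moved against the other members. The sequences are RefSeq's on GRCm38.p6, 250 bases before to 50 after the gene start, 5′ to 3′ on the gene's strand. Mrpl42 lies at chr10:95501900-95502199 (minus strand), Mrpl50 at chr4:49521034-49521333 (minus), Mrps2 at chr2:28467816-28468115 (plus), Mrpl39 at chr16:84735195-84735494 (minus) and Mrps18b at chr17:35916391-35916690 (minus). Capitals mark letters of a searched motif, which were the YY1 core in Mrpl42, the NRF1 core in Mrpl39 and the ETS core, on the opposite strand, in Mrps18b; Mrpl50 and Mrps2 held none of those searched. The RefSeq start of Mrpl39 lies 498 bp from the gene start in the GENCODE models.
Mrpl42: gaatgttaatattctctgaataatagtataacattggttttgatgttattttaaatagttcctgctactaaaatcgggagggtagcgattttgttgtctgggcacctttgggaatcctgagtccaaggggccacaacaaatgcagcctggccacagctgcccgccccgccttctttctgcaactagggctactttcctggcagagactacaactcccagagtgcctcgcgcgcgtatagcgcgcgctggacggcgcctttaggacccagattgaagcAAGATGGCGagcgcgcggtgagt
Mrpl50: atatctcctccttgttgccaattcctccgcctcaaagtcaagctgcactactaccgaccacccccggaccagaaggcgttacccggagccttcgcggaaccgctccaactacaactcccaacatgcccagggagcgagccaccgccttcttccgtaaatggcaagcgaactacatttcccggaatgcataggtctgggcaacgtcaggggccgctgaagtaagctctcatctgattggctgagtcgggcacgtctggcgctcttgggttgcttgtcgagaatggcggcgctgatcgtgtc
Mrps2: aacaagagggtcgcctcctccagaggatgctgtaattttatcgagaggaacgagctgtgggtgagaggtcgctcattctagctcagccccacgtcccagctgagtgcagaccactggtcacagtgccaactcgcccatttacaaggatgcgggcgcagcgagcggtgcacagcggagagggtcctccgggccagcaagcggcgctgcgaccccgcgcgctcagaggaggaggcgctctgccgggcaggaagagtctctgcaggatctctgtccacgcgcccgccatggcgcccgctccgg
Mrpl39: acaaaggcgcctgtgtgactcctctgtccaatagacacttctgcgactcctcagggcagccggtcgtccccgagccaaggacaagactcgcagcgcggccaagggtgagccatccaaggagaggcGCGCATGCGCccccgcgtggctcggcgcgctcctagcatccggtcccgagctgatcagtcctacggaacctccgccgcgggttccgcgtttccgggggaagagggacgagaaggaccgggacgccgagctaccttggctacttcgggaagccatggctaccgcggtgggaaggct
Mrps18b: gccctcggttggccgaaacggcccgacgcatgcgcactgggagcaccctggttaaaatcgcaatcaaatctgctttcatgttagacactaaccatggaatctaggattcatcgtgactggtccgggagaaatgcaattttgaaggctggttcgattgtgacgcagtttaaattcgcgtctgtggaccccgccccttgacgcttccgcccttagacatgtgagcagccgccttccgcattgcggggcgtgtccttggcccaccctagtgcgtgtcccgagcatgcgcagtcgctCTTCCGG

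No motif searched contains another. They were searched on both strands in the 68 members with a RefSeq start region and in 10909 other protein-coding genes that were tested. NRF1, GABP (an ETS factor) and YY1 are nuclear factors known for genes of mitochondrial function. The NRF1 core, GCGC, any base, then TGCGC, was present in 13 of 68 member regions (19.1%) and in 9.74% of the other regions. The ETS core, CCGGAAG, was present in 23 member regions (33.8%) and in 17% of the others, and the YY1 core, AANATGGCG, in 11 member regions (16.2%) and in 4.85% of the others. Of the D-box, the element bound by E4BP4, only the 2 forms TTATGTAA and TTACGTAA were searched. They were in 0 member regions and in 0.523% and 0.128% of the others. With shares this low among the others, 0 of 68 regions does not set the members apart from other genes. The E-box CACGTG was in 5 member regions (7.35%) and in 9.92% of the others. These are letter matches in a short window and not binding sites. In 18 of the 77 members (23.4%) a protein-coding gene on the opposite strand started within 1000 bp upstream, a head-to-head arrangement found in 9.26% of the other protein-coding genes tested; Zfp189 starts 83 bp from Mrpl50 and Ppp1r10 starts 45 bp from Mrps18b.

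Libraries held 7711796 to 45598791 counts on genes. Nfil3, the targeted gene, had 0.506 to 4.75 CPM in CEK hearts and 4.90 to 31.8 CPM in CON hearts, and the genotypes did not overlap at any of the 8 times. Of all libraries, 3 stood apart on the first principal component of all genes, namely replicate 4 of CEK hearts at ZT00, replicate 1 of CEK hearts at ZT18 and replicate 3 of CON hearts at ZT18. The CON library among them had the fewest counts, 7711796. All 12 cardiomyocyte markers listed were detected. Atrial markers summed to 161 to 2320 CPM in CEK hearts and 166 to 4130 CPM in CON hearts, with 6 of 8 lower in CEK and 0 higher, and macrophage markers summed to 305 to 674 CPM in CEK and 253 to 566 CPM in CON, with 10 of 12 higher in CEK and 0 lower.

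The members covered a wide range of levels. Scaled CPM, averaged over the 64 libraries, ran from 8.37 for Mrps18c to 240 for Mrpl42, with a median of 38.4 CPM. Divided by the length of the principal transcript, so that genes can be compared, the level ran from 5.41 to 361 CPM per kb, with a median of 28.6. The highest were Mrpl42 (361 CPM per kb), Mrpl30 (138), Mrps21 (138) and Mrps23 (110). The lowest were Mrps25 (5.41), Mrpl17 (5.62), Mrpl19 (5.84) and Mrpl57 (7.29). The order depends on the length taken: per kb of all annotated exons, Mrps23 had the highest level at 94.2, Mrps21 had 91.4 and Mrpl42 had 65.3 CPM per kb, while Mrps25, Mrpl17, Mrpl19 and Mrpl57 ranked 71, 68, 69 and 61 of 77. Members of the large subunit had a median of 32.2 CPM per kb of principal transcript and members of the small subunit 16.6, as a description of these genes.

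Across hearts the members varied together. Their mean log2 CPM ran from 4.74 in CEK at ZT12 replicate 1 to 6.07 in CON at ZT18 replicate 3, and their summed level differed 2.47-fold between the extreme libraries. The lowest library, CEK at ZT12 replicate 1, also had the highest shares of reads in no gene (12.6%) and of ambiguous reads (12.5%). The medians of those shares were 3.56% and 3.2%. The 3 libraries that stood apart had the 3 highest means, 5.95, 5.96 and 6.07, and the next was 5.72. The SD within groups was 0.264 on the log2 scale, and the SD of the 16 group means was 0.107. Each group mean averages 4 libraries and so varies less than a single library, and the 2 SDs cannot be compared directly. In deviations from the group means, 87.0% of the variance of the 77 genes lay on 1 component. CEK hearts had a mean of 4.74, 5.33 and 5.96 (lowest, median and highest of 32), and CON hearts 4.90, 5.29 and 6.07, so the genotypes overlapped almost entirely.

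**Figure D1:**
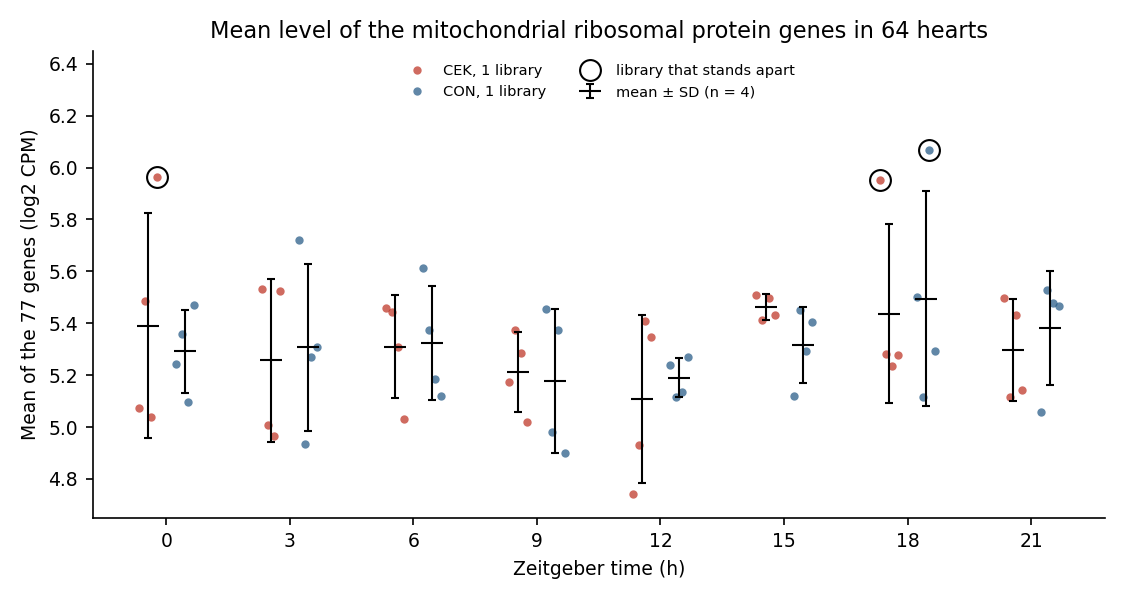
Mean log2 CPM of the 77 genes in each library (points) by zeitgeber time in hours, CEK left of CON, with the mean and SD of the 4 libraries of each group in black; circles mark the 3 libraries that stand apart. SDs within groups run from 0.0490 to 0.433; CEK and CON overlap at each time, while some groups of different times do not, such as CEK at ZT15 (5.411 to 5.51) and CON at ZT12 (5.115 to 5.268).

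The common level of the members moved with the balance of short and long transcripts in a library. A length score was computed for each library as the mean log2 CPM of 719 nuclear protein-coding genes with a principal transcript under 1000 bp minus that of 4544 genes with one over 4000 bp, without the members and without cytosolic ribosomal protein genes. The mean of the members followed this score with Pearson's r = 0.973 and Spearman's rho = 0.962 over 64 libraries, r = 0.966 without the 2 libraries farthest from the median score, r = 0.984 in deviations from the group means and r = 0.960 without the 3 libraries that stood apart. The points share libraries and their scaling, so these values are descriptions without a p. The mean of 75 cytosolic ribosomal protein genes followed the mean of the members with r = 0.942, the mean of the cardiomyocyte markers with r = 0.662, that of the red blood cell markers with r = 0.781, and that of the atrial markers with r = -0.00111. The length score itself averaged -0.596 ± 0.404 in CEK hearts and -0.682 ± 0.363 in CON hearts (SD, n = 32 each), a difference of 0.0855 with p = 0.376 in a two-sided permutation test within times (100000 permutations). What sets the score in a library was not tested.

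**Figure D2:**
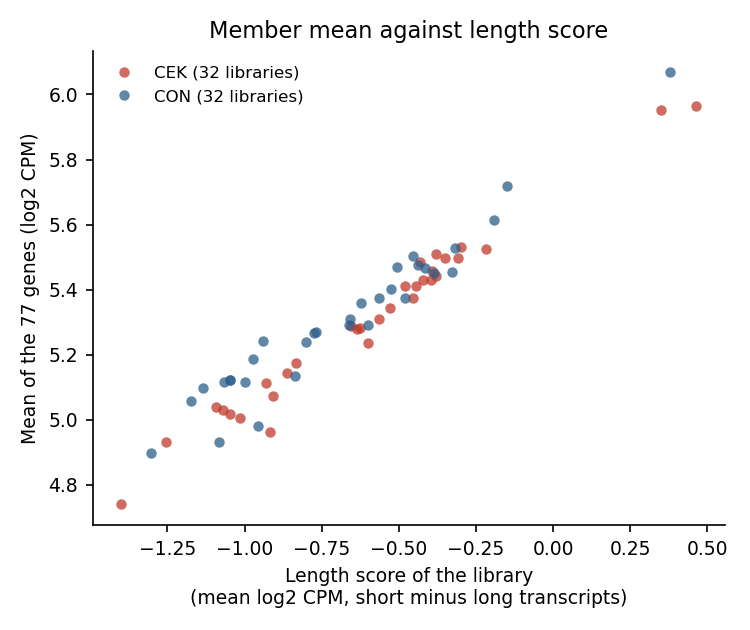
Mean log2 CPM of the 77 genes against the length score (mean log2 CPM of short minus long transcripts) in 32 CEK and 32 CON libraries, 1 point each. Points of both genotypes lie along 1 line, with r = 0.973 over 64 libraries.

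Members differed in how far they followed the score. The slope of a gene, its change in log2 CPM per unit of score within groups, was above 0 in 76 of 77 members and in 6180 of 13950 other protein-coding genes tested, with medians of 0.639 and -0.0698. The score was built from other genes under 1000 bp and over 4000 bp. The slopes of the other genes in those classes, and their trend with length, are thus in part fixed by its definition. The members did not enter the score. Short transcripts had steep slopes: 24 members under 1000 bp had a median slope of 0.847, against 0.748 for other genes of that length. Among long genes the median of the members stood above that of the others, as a description without a test. The 9 members of 4000 bp and over had slopes of 0.279 to 0.851 with a median of 0.606, while the median of the 4551 other genes of that length was -0.358. This was not particular to the members, since long cytosolic ribosomal protein genes had high slopes too. The 1 such gene of 4000 bp and over had a slope of 0.971. In the length class just below, 5 such genes had a median of 0.726 and 16 members 0.577. The members' median SD within groups was 0.292 on the log2 scale, and that of the other genes 0.234. Slope and transcript length had a Spearman's rho of -0.508 across the 77 members, which are not independent replicates.

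**Figure D3:**
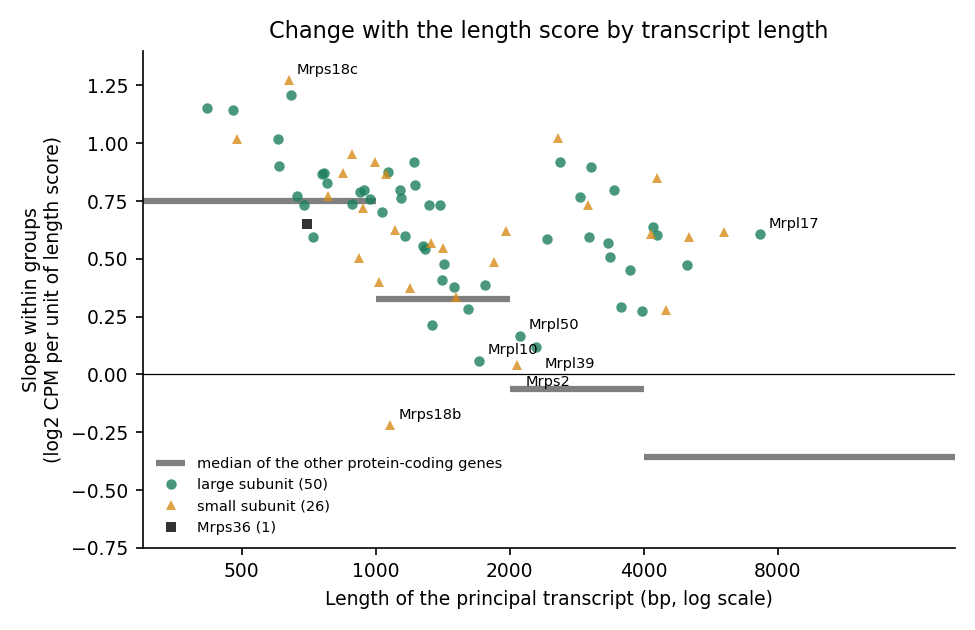
Slope of each member on the length score within groups (log2 CPM per unit of score) against the length of its principal transcript (bp, log scale), by subunit; grey bars are medians of the other protein-coding genes in 4 length classes. The members lie above 0 except Mrps18b, and the long ones lie above the grey bars. The score was built from other genes of the shortest and longest classes, so those bars are in part fixed by its definition.

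The likeness of a member was its correlation with the mean of the other members in deviations from the group means. It had a median of 0.947 and was over 0.9 in 54 members. The members most like the rest were Mrpl42 (0.990), a mitochondria-specific protein of the large subunit, Mrpl30 (0.984), the counterpart of a bacterial large subunit protein, and Mrpl58 (0.983), a large subunit protein related to peptide release factors. The least alike were Mrps18b (-0.325), Mrpl10 (0.205) and Mrps2 (0.235). Mrps18b had 5.19 and 4.11 CPM in the 2 CEK libraries that stood apart and 6.27 CPM in the CON one, each the lowest value of its group, where the mean of the members was highest. Its exons share 30.5% of their bases with the antisense gene Gm16279, and the sources used here do not state whether the counting used strand. Mrps2, Mrpl10, Mrpl39 and Mrpl50 had slopes between 0.0407 and 0.168 and varied least between libraries, with SDs within groups of 0.0938 to 0.125. By contrast, 4 members chosen after their values were seen, Mrps18c, Mrpl14, Mrpl52 and Mrpl33, had slopes of 1.14 to 1.27, and their highest library was 6.71 to 7.505 times their lowest.

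The question for genotype was whether the loss of E4BP4 changes the members averaged over the day. Of the 77 members, 0 were higher and 1 was lower in CEK hearts at a Benjamini-Hochberg adjusted p under 0.05 in edgeR's quasi-likelihood test. Of all 16417 genes tested, 12% were called, 6.69% as higher and 5.30% as lower; the members' share was 1.30%. At an unadjusted p under 0.05 there were 5 members, Mrpl50, Mrpl10 and Mrpl9 with values below 0 and Mrps23 and Mrpl57 with values above 0. About 1 in 20 unchanged genes pass that limit by chance, and the share of all genes under it is not given here. The median log2 fold change was 0.00138 for the members and -0.000721 for all genes, and 36 members lay below 0. Without the 3 libraries that stood apart the median was -0.0292 and 56 members lay below 0. With voom and quality weights the median was -0.047 and 65 lay below 0, and with DESeq2 40 did. The split of signs thus depended on the fit. More members lay below 0 where the 3 libraries were left out or quality weights were used. The members share the same hearts, so their signs are not independent. All 77 members overlapped between CEK and CON libraries when the libraries of all times were pooled. The share of all genes that overlap in this way is not given here, so the count does not set the members apart from other genes.

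Mrpl50 (ENSMUSG00000044018.3, chr4:49512596-49521093 on GRCm38, minus strand), a mitochondria-specific protein of the large subunit, was the member called lower. It had 53.3, 57.98 and 68.4 CPM in CEK hearts and 52.6, 62.97 and 75.7 CPM in CON hearts (lowest, median and highest of 32 each). The mean was 58.9 ± 3.59 CPM in CEK and 63.4 ± 4.59 CPM in CON (SD, n = 32 each). The log2 fold change was -0.11 ± 0.025 (SE), or -7.13%, and edgeR gave an adjusted p of 0.00228. This SE was the smallest of the 77 members, whose median SE was 0.0705. The lowest log2 fold change of a member was -0.155, which was not called, so Mrpl50 did not have the largest difference. CEK lay below CON at 7 of 8 times, and the largest gap was at ZT18, where CEK hearts had 61.2, 57.8, 54.4 and 57.6 CPM and CON hearts 69.9, 63.7, 75.7 and 59.1 CPM. All CEK values but 1 were below all CON values there. At ZT09, the exception, CEK hearts had 56.2, 62.4, 60.8 and 57.5 CPM and CON hearts 59.2, 52.6, 63.1 and 57.8 CPM, and the groups overlapped. Mrpl50 was called without the 3 libraries that stood apart, under DESeq2, and with any single library left out. In whole ventricles, fewer cells of a type and less RNA per cell cannot be told apart; cardiomyocyte markers, 1 of 12 higher and 3 lower in CEK, are given as values, and their part in the result was not tested.

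Because most members carry the spread that follows the length score, the same comparison was also fitted with the score as a covariate, a choice made after seeing the data. The standard error of all 77 members then shrank, with a median of 0.0263 with the score and 0.0705 without it. With the score, 30 members were lower in CEK and 3 were higher by edgeR's adjusted p, 39% and 3.90% of the members. Of all genes 21.5% were called, 10.8% as lower and 10.8% as higher. The median log2 fold change of the members was -0.0561, against -0.00301 for all genes, and 65 of 77 lay below 0. Of the edgeR fits with and without the score, both called Mrpl50, and the other 29 lower members were called only in the fit with it. Without the score, limma's voom with quality weights called 7 of the 77 members lower and 0 higher. It called 1335 of all 16417 genes lower and 1593 higher, so the members' share of lower genes was near that of all genes. The 7 were Mrpl50, Mrps28, Mrpl45, Mrps9, Mrpl10, Mrpl9 and Mrpl37. DESeq2 without the score called Mrpl50 and Mrpl10 lower, and 1024 of all genes. Cell type markers also moved in the edgeR fit with the score: 7 of 12 cardiomyocyte markers were lower and 1 higher (median log2 fold change -0.109), 5 of 10 endothelial markers were lower and 0 higher (median -0.0861), and 11 of 12 macrophage markers were higher and 0 lower (median 0.309). Their part in the members' values was not tested. By construction the covariate lowers the CEK value of genes with a positive slope, since the score averaged 0.0855 higher in CEK (p = 0.376 in the permutation test above). Whether the genotype moves the score cannot be told apart from chance differences between hearts here.

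Among the members lower with the score, Mrps28 (chr3:8802146-8923918, minus strand), the counterpart of bacterial bS1, had the smallest p. Mrps28 had 18.8, 32.2 and 51.4 CPM in CEK hearts and 23.4, 34.98 and 69.3 CPM in CON hearts (lowest, median and highest of 32 each), and the genotypes overlapped. Its log2 fold change was -0.22 ± 0.024 with the score (adjusted p = 1.27e-10, edgeR) and -0.15 ± 0.079 without it (adjusted p = 0.228, edgeR), while limma's voom with quality weights gave -0.22 without the score (adjusted p = 0.00267). In both edgeR fits it lay below 0 at all 8 times. Small subunit proteins Mrps7 (-0.13 ± 0.019) and Mrps9 (-0.17 ± 0.031), both with bacterial counterparts, followed, along with the large subunit proteins Mrpl58 (-0.13 ± 0.020), Mrpl48 (-0.10 ± 0.020), Mrpl44 (-0.10 ± 0.022) and Mrpl45 (-0.15 ± 0.035), each as a log2 fold change with its SE in the fit with the score. The 3 higher members were Mrpl20 (0.08 ± 0.021), Mrpl57 (0.09 ± 0.025) and Mrps23 (0.09 ± 0.026). Mrpl20 had 20.9, 36.4 and 69.8 CPM in CEK hearts and 20.9, 32.1 and 66.5 CPM in CON hearts. These names were taken after their values were seen, apart from Mrpl50, Mrpl58, Mrpl44, Mrpl57 and Mrps23.

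**Figure D4:**
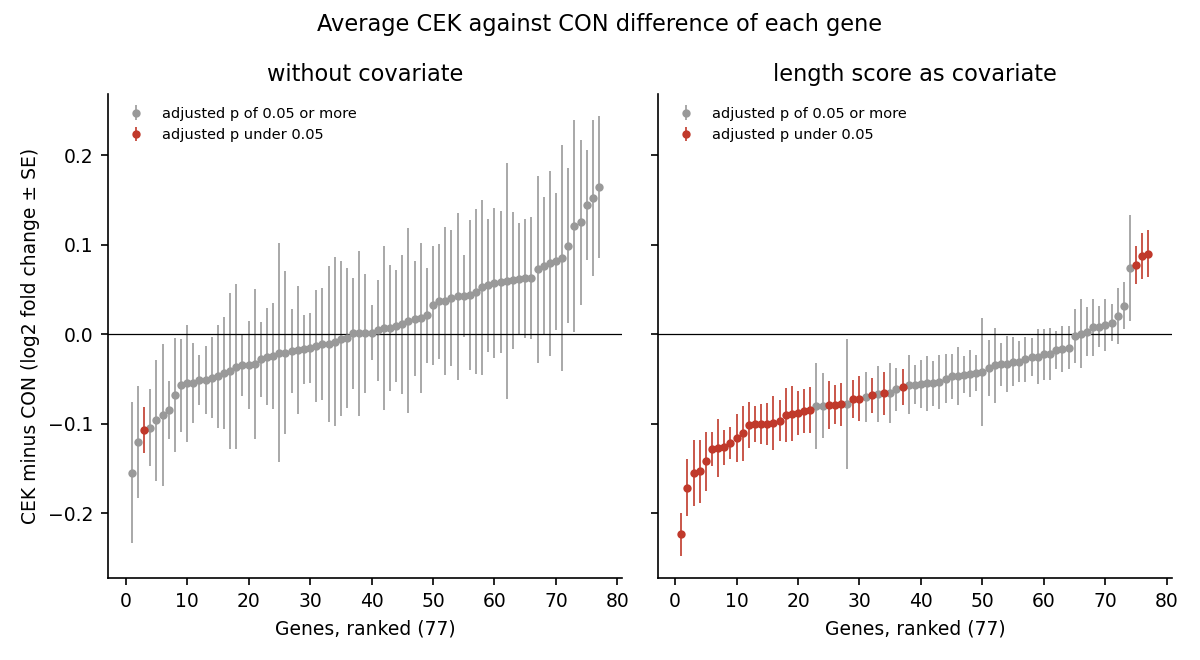
Log2 fold change, CEK minus CON averaged over 8 times, with its SE, for the 77 genes ranked by value; left without a covariate, right with the length score as covariate. Red marks an adjusted p under 0.05, 1 gene on the left and 33 on the right, and the error bars are shorter on the right.

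By class, the counts with the score were 12 lower and 1 higher of 30 large subunit members with a bacterial counterpart, 11 lower and 1 higher of 20 mitochondria-specific large subunit members, 5 lower and 0 higher of 16 small subunit members with a counterpart and 2 lower and 1 higher of 10 mitochondria-specific small subunit members. Over all genes, 10.8% were lower and 10.8% higher in that fit. Mrps36, of the citric acid cycle complex, did not pass the test. Its log2 fold change was -0.05 with the score and 0.01 without it. The medians by class with the score ran from -0.0721 to -0.0467.

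Members of medical or structural interest did not pass the test without the score. MRPL3, MRPL44 and MRPS22, linked to human cardiomyopathy, are represented here by Mrpl3 (log2 fold change -0.05 ± 0.038), Mrpl44 (-0.06 ± 0.052) and Mrps22 (-0.03 ± 0.049). With the score Mrpl3 and Mrpl44 were lower (adjusted p = 0.0249 and 0.000451, edgeR), and Mrps22 had an adjusted p of 0.162. Mrpl3 had 69.1, 92.8 and 112 CPM in CEK hearts and 76.98, 94.7 and 114 CPM in CON hearts. Mrpl12, which also binds the mitochondrial RNA polymerase, had 50.1 ± 10.9 CPM in CEK and 49.8 ± 10.95 CPM in CON (SD, n = 32 each), with a log2 fold change of 0.01 ± 0.077. The 3 relatives of bacterial S18 had log2 fold changes of 0.06 ± 0.077 (Mrps18a), 0.06 ± 0.062 (Mrps18b) and 0.06 ± 0.13 (Mrps18c). Mrps30, of the large subunit, had 0.02 ± 0.064. With the score, the values of Mrpl12, Mrps18a, Mrps18c, Mrps30 and Mrps36 were below 0, with adjusted p of 0.228 to 0.721.

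At single times, 4 CEK and 4 CON libraries were compared within the fit of all 16 groups. No member was called at any of the 8 times by edgeR's adjusted p, and at an unadjusted p under 0.05 there were 2, 1, 0, 0, 0, 0, 2 and 1 members from ZT00 to ZT21. By adjusted p, the shares of all genes called were 1.24, 0.700, 0.189, 0.341, 0.11, 0.11, 0.201 and 0.146% in the same order. Shares of all genes at the unadjusted limit are not given here. DESeq2 called 0 members at each time as well. The members' median log2 fold change was 0.17 at ZT00 and 0.14 at ZT15 and lay between -0.09 and 0.02 at the other times. At ZT00 the value rested on 1 library: CEK hearts had a mean log2 CPM of the members of 5.39 with the library that stands apart and 5.20 without it, against 5.29 in CON hearts, and the median log2 fold change of the members was -0.08 without it. At ZT15 69 of 77 members lay above 0, and the member means of 5.41 to 5.51 in CEK hearts overlapped with 5.12 to 5.45 in CON hearts.

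With the length score in the model, Mrps28 was lower in CEK at ZT00 (log2 fold change -0.36 ± 0.068, adjusted p = 0.000802 in edgeR; 1.23% of all genes were lower) and at ZT03 (-0.30 ± 0.067, adjusted p = 0.00627; 0.664%). At ZT18 Mrpl50 (-0.22 ± 0.051, adjusted p = 0.0193) and Mrpl58 (-0.23 ± 0.055, adjusted p = 0.0237) were lower in edgeR, and 0.359% of all genes were. No member was higher at any time. Mrps28 at ZT00 had 23.4, 34.6, 22.5 and 51.3 CPM in CEK hearts and 33.1, 35.9, 28.5 and 38.9 CPM in CON hearts. The CEK libraries both undercut and exceeded the CON ones, and the highest CEK value is that of the library that stands apart.

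Daily rhythm was tested as the cosine and sine of a 24-h period in each genotype. In CEK hearts 1 of 77 members passed, Mrpl39, where 15.6% of all genes did. In CON hearts 1 member passed, Mrps2, where 14.6% of all genes did. At an unadjusted p under 0.05 there were 6 members in CEK and 1 in CON. About 1 in 20 genes without a rhythm pass that limit by chance, and the share of all genes under it is not given here. Amplitudes, from the fitted mean to the peak in log2 CPM, had a median of 0.119 in CEK and 0.105 in CON over the members, and 0.124 and 0.118 over all genes. Fitted peaks lay between ZT18 and ZT24 in 67 members in CEK and in 72 in CON, and the members share the same hearts. The share of all genes with such peaks is not given here. The 3 libraries that stood apart, at ZT00 and ZT18, had the highest member means. At ZT18 the group mean was 5.437 in CEK and 5.494 in CON with them, and 5.266 and 5.303 without them. Without them the highest group means were 5.462 at ZT15 in CEK and 5.382 at ZT21 in CON. No member differed in rhythm between the genotypes (lowest adjusted p = 1, edgeR; 0.00609% of all genes did), and 0 had an unadjusted p under 0.05. None had a 12-h component (lowest adjusted p = 0.535; 0.201% of all genes had one), and 0 had an unadjusted p under 0.05; DESeq2 also called 0 in both tests.

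Mrpl39 (chr16:84717576-84735742, minus strand), a mitochondria-specific large subunit protein that resembles a tRNA synthetase, had an amplitude of 0.09 with a fitted peak at ZT10.5 in CEK hearts (adjusted p = 0.0427, edgeR). Its means in CEK hearts were 58.2, 60.2, 66.7, 67.6, 65.2, 64.7, 61.3 and 62 CPM from ZT00 to ZT21, with SDs of 1.90 to 7.48 (n = 4 each). In CON hearts its amplitude was 0.03 (adjusted p = 0.799) and its means lay between 63.4 and 67.3 CPM. The difference in rhythm of Mrpl39 had an unadjusted p of 0.0541 in edgeR and an adjusted p of 1. Mrps2 (chr2:28468066-28471178, plus strand), a small subunit protein with a bacterial counterpart, had an amplitude of 0.10 with a fitted peak at ZT22.2 in CON hearts (adjusted p = 0.0464, edgeR). Its CON means were 37, 34.3, 33.7, 31.2, 31.7, 34.8, 34 and 36.2 CPM from ZT00 to ZT21, with SDs of 0.612 to 5.73, lowest at ZT09 and highest at ZT00. In CEK hearts its amplitude was 0.08 (adjusted p = 0.162). Both amplitudes lay below the median of the members in the same genotype, 0.119 in CEK and 0.105 in CON. Both genes were among the members that varied least within groups, so these calls do not mark the largest swings. Both calls sit at the threshold: leaving out 1 library at a time, Mrpl39 kept an adjusted p under 0.05 in 18 of 64 fits and Mrps2 in 27 of 64. Without the 3 libraries that stood apart Mrps2 passed and Mrpl39 did not.

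**Figure D5:**
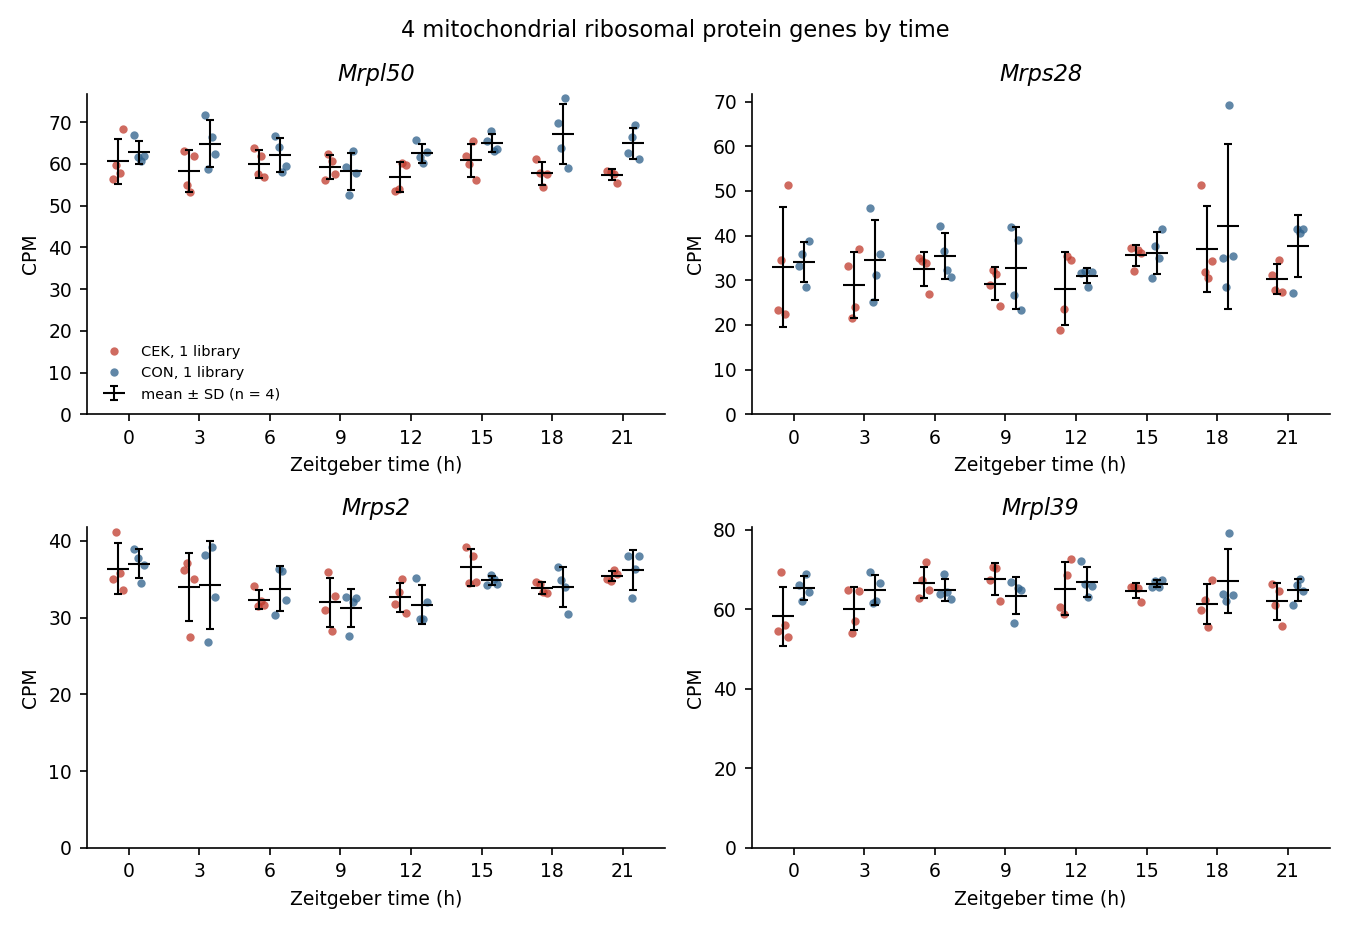
CPM of Mrpl50, Mrps28, Mrps2 and Mrpl39 in each library (points) by zeitgeber time in hours, CEK left of CON, with the mean and SD of 4 libraries in black; axes start at 0. Mrpl50 lies lower in CEK hearts at 7 of 8 times, Mrps28 spreads more within groups, and the daily swings of Mrps2 and Mrpl39 are small beside their levels.

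With the length score as covariate, 5 members had a rhythm in CEK hearts (24.5% of all genes) and 6 in CON hearts (26.1%). Mrps26, a mitochondria-specific small subunit protein, passed in both genotypes with amplitudes of 0.11 in CEK and 0.09 in CON and fitted peaks at ZT12.2 and ZT11.7. Mrps18a also passed in both, with amplitudes of 0.08 and 0.08 and peaks near lights on, at ZT1.06 in CEK and ZT0.464 in CON. Mrpl39, Mrps6 and Mrpl36 passed in CEK hearts, and Mrpl20, Mrps2, Mrpl34 and Mrpl18 in CON hearts. No member differed in rhythm between genotypes (0.0122% of all genes did) or had a 12-h component (0.962%). Fitted peaks between ZT18 and ZT24 then numbered 20 in CEK and 46 in CON.

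Other genes of mitochondrial translation are given from lists that are not part of the 77, and over all genes 5.30% were lower and 6.69% higher. Of 5 further ribosome subunits with other symbols, 0 were called in the average comparison, and with the score 2 were lower, Aurkaip1 (-0.11) and Dap3 (-0.08). Of 16 translation factors 2 were lower and 0 higher: the initiation factor Mtif3 (log2 fold change -0.12 ± 0.041) and Mtrf1l (-0.11 ± 0.038), a release factor. Of 20 genes that charge mitochondrial transfer RNAs 5 were lower and 1 higher, with Aars2 (-0.18 ± 0.038), Hars2 (-0.11 ± 0.028), Vars2 (-0.10 ± 0.030) and the higher Rars2 (0.13 ± 0.032) having the smallest p. Of 27 genes of ribosome assembly and ribosomal RNA modification 4 were lower and 0 higher, Eral1 (-0.16 ± 0.031), a chaperone of the small subunit RNA, Mettl17 (-0.15 ± 0.037), Mettl15 (-0.14 ± 0.038) and Rpusd4 (-0.15 ± 0.040). With the score, where 10.8% of all genes were lower and 10.8% higher, 6 of the 16 translation factors were lower and 0 higher, 10 of the 20 charging genes were lower and 1 higher, and 9 of the 27 assembly genes were lower and 0 higher. All these calls are by edgeR's adjusted p over all genes. Mgme1, a nuclease of mitochondrial DNA upkeep (-0.18 ± 0.032), was 1 of 12 genes of mitochondrial DNA transcription and replication and was lower, and of 10 regulators of mitochondrial biogenesis Myc (0.53 ± 0.099) was higher and 0 were lower. The ribosomal RNAs mt-Rnr1 and mt-Rnr2 did not pass, at 0.14 ± 0.13 and 0.05 ± 0.10.

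Counting sets limits for some members. In 32 members exons overlap those of another gene, in 8 of them by at least 20% of the exon length. The largest are Mrps25 with Nr2c2 (69.8% of its exon bases, opposite strand), Mrps34 with Mapk8ip3 (63.4%, opposite) and Mrpl19 with Gcfc2 (36%, opposite). Without the strand setting, reads of such pairs cannot be told apart, and ambiguous reads are not counted for either gene. Mrpl50, Mrps2, Mrpl39 and Mrps28 are not among the 8.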

How the data were processed

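The deposited values are raw counts per gene. The tools the authors used were, per the submitters' processing notes, bcl2fastq 2.18.0.12 for base calls, STAR 2.6.1d for alignment and HTSeq 0.11.1 for counting, with GRCm38 as the build. The annotation release and the strand setting are not named in those notes. Reads in no gene made up 2.92 to 12.6% and ambiguous reads 2.93 to 12.5% per library; neither entered library sizes or tests.

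Genes were named from GENCODE gene models on GRCm38. Genes with too few counts were removed by filterByExpr (edgeR 4.0.16, R 4.3.3, minimum count 10), counts were scaled by TMM, and CPM in the text is TMM-scaled. Means of log2 CPM used a prior count of 2. edgeR's quasi-likelihood test was fitted over all 64 libraries, with 16 group means for genotype and with cosine and sine terms for rhythm, and p-values were adjusted by Benjamini-Hochberg over 16417 genes at 0.05. DESeq2 1.42.0, voom with quality weights (limma 3.58.1), other scalings, filters and left-out libraries were alternatives. The length score as covariate and the fits without 3 libraries were added after seeing the data. The tests were first tested on simulated data.

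The members and gene lists were chosen with earlier results of these data known. Named members were 9 of known role, those called (10 of smallest p in each direction), rhythmic members (8 of largest amplitude), the 4 highest and 4 lowest levels per kb and the 3 most and 3 least like the others; others are said to be chosen after their values were seen. Depth ran from 7711796 to 45598791 counts per library, and errors are SDs or SEs between libraries.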

Additional observations from a re-analysis of the deposited data

Results flagged for a closer look

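Dixon's test was run 64 times, on the 16 groups of 4 libraries for the mean of the members and again for single members. In 5 of these tests a library lay far from the other 3, and chance flags about 1 in 20. The tests share libraries and are not independent. The mean log2 CPM of the members was 5.952 in the highest CEK library at ZT18, and the next was 5.283; this is a library that stood apart on all genes. It was 5.057 in the lowest CON library at ZT21, and the next was 5.468. Mrpl39 had 61.9 CPM in the lowest CEK library at ZT15, and the next had 65.3 CPM. Mrpl39 had 79.3 CPM in the highest CON library at ZT18, and the next had 63.9 CPM; this too is a library that stood apart. Mrps2 had 27.6 CPM in the lowest CON library at ZT09, and the next had 32.1 CPM.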

How the results depend on the processing

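Mrpl50 was lower in CEK under all 12 alternatives (log2 fold change -0.12 to -0.10, adjusted p 5.48e-07 to 0.0184) and in all 64 fits that left out a library (adjusted p 0.000753 to 0.0059). The number of members called in the average comparison was 2 with DESeq2, 7 with voom and quality weights, 33 with the length score, 33 with its wider limits and 36 with the score and without the 3 libraries that stood apart. Leaving out 1 library gave 1 to 2 members, 2 without CEK ZT00 replicate 2, CEK ZT03 replicate 4 or CEK ZT12 replicate 4. All genes called numbered 3533 with the score and 1968 without it. With voom and quality weights 1593 of all genes were higher and 1335 lower, and with DESeq2 1143 and 1024. The wider limits gave 1768 higher and 1771 lower. Of 16492 genes, the score without the 3 libraries gave 1860 higher and 2047 lower. At single times the score gave 4 calls, its wider limits 6 and the score without the 3 libraries 5, all lower; leaving out 1 library gave 0 throughout.

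Rhythm in CEK hearts numbered 0 members with RLE scaling, without mitochondrial genes, without the low-count filter, without the 3 libraries, with CEK libraries alone and with 8 levels of time, 2 with voom, and 5 with the score, with its wider limits and with the score without the 3 libraries. In CON hearts it numbered 0 without mitochondrial genes, without the filter, with CON libraries alone and with 8 levels of time, 9 with voom, 6 with the score, and 9 with its wider limits and with the score without the 3 libraries. Leaving out 1 library gave 0 to 1 members in each genotype, 0 in 45 of 64 fits for CEK and 37 of 64 for CON. Of all 16417 genes, 1378 in CEK and 1269 in CON were called as rhythmic with 8 levels of time. The cosine gave 2560 in CEK and 2393 in CON, and the score 4027 in CEK and 4293 in CON. With voom there were 3911 in CEK and 4419 in CON, and with the wider limits 4062 in CEK and 4340 in CON. Of 16492 genes, the score without the 3 libraries gave 4487 in CEK and 4952 in CON. Higher counts of rhythmic members thus came with higher counts over all genes. The cause was not tested. No member was called for a difference in rhythm or a 12-h component under any alternative run.

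Same-numbered CEK and CON libraries deviated together in part: 20 of 32 pairs had a correlation over 0.1 (range -0.431 to 0.522, median 0.152), and 15 of 32 CEK libraries correlated best with the CON library of their own number. This is a hint of pairing from the data that not every pair shows, and the labels do not say that a number marks a shared litter, batch or day, so the samples were not treated as paired. The replicate block gave 1 member in the average comparison, 1 rhythmic member in each genotype and 0 in the other tests.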

Other observations

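The 5 pseudogenes with a member-like symbol were listed at 0.938 (Mrpl23-ps1), 0.593 (Mrps36-ps1), 0.461 (Mrpl48-ps), 0.0805 (Mrps36-ps2) and 0 CPM (Mrps36-ps3), averaged over 64 libraries. The mean of the genes for ribosome assembly and rRNA modification followed the mean of the members with r = 0.942 over 64 libraries, and that of the genes that charge transfer RNAs with r = 0.189, as a description. Summed CPM of the 20 genes that charge transfer RNAs ran from 627 to 20400 over CEK libraries and from 693 to 8010 over CON libraries. Which of the 20 genes make up the highest sums is not given here, so the sums do not describe the group as a whole.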
